A study of Astyanax mexicanus with 12 samples.

Results

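The 200 genes described here rose in the larval liver of surface fish between 5 and 7 days post-fertilization (dpf) and changed little over the same days in Tinaja cavefish. They were chosen by their own values. For each gene, S was the mean log2 CPM (read counts per M reads in genes, with library sizes scaled by trimmed mean of M values, TMM, and a prior count of 2) of surface fish at 7 dpf minus that at 5 dpf, and T was the same difference in Tinaja. A gene qualified with S of at least 1, T between -0.5 and 0.5, a mean log2 CPM under 10, and all 3 surface libraries at 7 dpf above all 3 at 5 dpf. Of 27420 genes counted, 17540 had enough reads to be tested. The rule was met by 624 of these, and the 200 with the largest S were kept.

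The Mexican tetra, Astyanax mexicanus, lives as river-dwelling surface fish and as blind cave forms, of which Tinaja is 1. Larvae first live on maternal yolk, and once it is used up an unfed larva has to draw on its own stores. The liver is the organ that stores glycogen and lipid after feeding, and that in fasting breaks glycogen down, makes glucose and oxidises fatty acids. Adult cavefish are known for large fat reserves and for enduring long periods without food.

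There were 4 groups of 3 libraries, namely Tinaja at 7 dpf, Tinaja at 5 dpf, surface fish at 7 dpf and surface fish at 5 dpf. Each library held the livers of 40 larvae, and embryos from several parent tanks had been mixed. The study treats the larvae at 5 dpf as fed and those at 7 dpf as fasted, so the effect of age and that of feeding state cannot be told apart. The labels name no transgene or mutation in either form. Since a library is a pool, p-values refer to variation among pools, part of which may be technical. In pooled tissue, fewer cells of a type and less RNA per cell cannot be told apart. The identifiers could not be paired with gene names (0 of them matched the names table), so the function of the members, their positions, and the markers of liver and other cell types were not analysed here, and genes are given by identifier.

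The libraries held 12.2 to 21.4 M reads in genes in Tinaja at 7 dpf, 13.5 to 20.8 M in Tinaja at 5 dpf, 18.5 to 23.6 M in surface fish at 7 dpf and 10.6 to 12.5 M in surface fish at 5 dpf. Reads that fell outside annotated genes made up 25.4% ± 2.1 (SD, n = 3) of the reads in Tinaja at 7 dpf and 24.0% ± 5.3 at 5 dpf. In surface fish they made up 21.7% ± 0.9 at 7 dpf and 30.7% ± 3.6 at 5 dpf. The surface ages did not overlap in this share, at an exact two-sided permutation p of 0.1, the smallest that 3 against 3 libraries allow. Depth and this share therefore moved with age in surface fish, the same contrast that chose the genes. So did the share of reads in the 100 most abundant genes (42.6% ± 2.2 at 7 dpf, against 33.5% ± 2.5 at 5 dpf), unaligned reads (4.35% ± 0.39, against 7.86% ± 1.54) and TMM factors (0.721 to 0.907, against 1.23 to 1.55), none of which overlapped between the surface ages. With reads outside genes as a covariate 48 members passed as higher at 7 dpf in surface fish, against 189 without it. The share of all genes was 2.91% with the covariate and 14.1% without it, so calls over all genes fell along with those of the members. The part of depth was not tested beyond thinning the counts to equal depth, under which 180 of the 200 genes still met the rule.

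The members covered a wide range of expression. Their mean log2 CPM had a median of 4.19 and ran from -1.68 to 9.94, against a median of 2.99 over all genes tested. The 200 genes together took 1.51%, 1.39% and 1.35% of the reads in genes in the Tinaja libraries at 7 dpf, against 1.35%, 1.46% and 1.20% in those at 5 dpf. In surface fish they took 1.90%, 1.92% and 1.88% at 7 dpf, against 0.918%, 0.952% and 0.889% at 5 dpf. The Tinaja libraries of both ages thus lay between the surface ages and overlapped each other. The median member was at 21.1 CPM in Tinaja at 7 dpf and at 19.5 CPM in Tinaja at 5 dpf. It was at 38.3 CPM in surface fish at 7 dpf and at 9.67 CPM in surface fish at 5 dpf. In surface fish at 7 dpf 63 members averaged over 100 CPM and 6 averaged under 1 CPM, and at 5 dpf 33 averaged under 1 CPM. None was without a read in surface fish at 5 dpf, and 3 had 1 to 3 reads there over the 3 libraries.

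S had a median of 1.65 and ran from 1.38 to 5.99, with 41 members above 2 and 6 above 3. T had a median of 0.20 and ran from -0.49 to 0.50, and was positive in 153 members, negative in 46 and 0 in 1 that had no read in Tinaja. The last gene kept had S of 1.38 and T of 0.32, and the first gene left out also had S of 1.38, with T of 0.05. The member nearest the upper limit on T had a T of 0.497. Of the 721 genes described next, the nearest beyond either limit had an absolute T of 0.501. Of the 721 genes with S at least that of the last member and surface ages that did not overlap, 498 exceeded the upper limit on T and 23 lay under the lower one. The limits thus do not mark a gap in the absolute value of T.

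**Figure D1:**
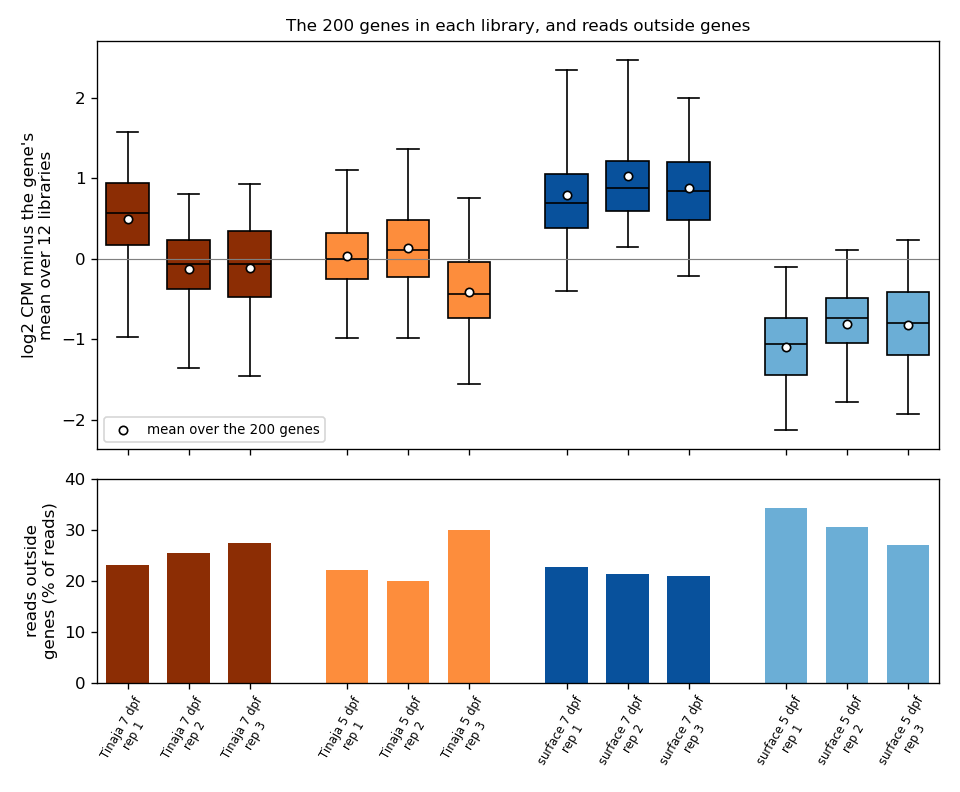
The upper plot gives, for each library on the x axis, the log2 CPM of the 200 genes minus each gene's mean over the 12 libraries (box, middle 50%; line, median; whiskers, 5th to 95th percentile; white point, mean), and the lower plot the percentage of reads outside genes. The 3 surface libraries at 7 dpf lie high and the 3 at 5 dpf low because the genes were chosen so, and Tinaja 7 dpf replicate 1 lies above the other Tinaja libraries.

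The 2 members with the largest S were low in all Tinaja libraries. ENSAMXG00000006007 had 5.54, 0.404 and 0.229 CPM in Tinaja at 7 dpf, against 0.983, 2.77 and 0.778 CPM in Tinaja at 5 dpf. In surface fish it had 49.2, 352 and 150 CPM at 7 dpf, against 6.36, 0.714 and 1.74 CPM at 5 dpf. Every surface library at 7 dpf exceeded all other libraries, and the Tinaja ages overlapped. ENSAMXG00000008159 had 1.50, 2.22 and 4.43 CPM in Tinaja at 7 dpf, against 1.91, 2.83 and 1.92 CPM in Tinaja at 5 dpf. The surface libraries had 557, 14.4 and 29.2 CPM at 7 dpf, against 3.12, 3.64 and 3.15 CPM at 5 dpf. A single library, surface 7 dpf replicate 1, set most of the size of its group mean, though the other surface libraries at 7 dpf were also above the other groups.

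The small T of the members is a difference between groups that were themselves spread out. Across the 6 Tinaja libraries the highest and lowest log2 CPM of a member lay 0.71 apart at the 10th percentile and 2.31 apart at the 90th, and 149 members spanned at least 1 (2-fold). In 45 members this span was at least as large as S. On average over the members Tinaja 7 dpf replicate 1 stood 0.41 above its group mean on the log2 scale, with the other replicates at -0.21 and -0.20. Tinaja 5 dpf replicate 3 stood at -0.33, with the other replicates at 0.12 and 0.22. Tinaja 7 dpf replicate 1 was the highest of its group in 148 members (74%), against 39% of all genes tested, and Tinaja 5 dpf replicate 3 the lowest of its group in 147 (73.5%), against 40% of all genes tested. Tinaja 7 dpf replicate 1 had the smallest TMM factor of the 12 (0.683) and 23.1% of reads outside genes, and Tinaja 5 dpf replicate 3 had the largest factor in Tinaja (1.24) and 30.0% outside genes. Tinaja 7 dpf replicate 1 averaged 0.38 above its group mean in the 424 further genes that met the rule. In the 235 genes that rose in both forms it averaged 0.61. Both of these sets also rise in surface fish. The same library stood at -0.09 over all genes tested, and at 0.06 in the 116 genes rising in Tinaja and flat in surface fish. Its shift was seen in the sets rising in surface fish but not over the genes as a whole. All of these sets were chosen partly on Tinaja values that include this library, which can shape its deviation in them. Nothing further is read from this comparison of sets. Tinaja 5 dpf replicate 3 stood at -0.28 in the 424 genes and at 0.08 in the 235. It stood at 0.02 over all genes tested and at 0.24 in the 116. The part of library scaling and of reads outside genes in T was not tested.

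Leaving out either of those libraries moved T towards 0. The median T was -0.01 with Tinaja 7 dpf replicate 1 left out and 0.03 with Tinaja 5 dpf replicate 3 left out. It was 0.29 and 0.31 without replicates 2 and 3 at 7 dpf, and 0.26 and 0.31 without replicates 1 and 2 at 5 dpf. Between 144 and 177 members stayed within the limit on T, and at most 3 had T of 1 or more. A T of -1 or less was reached by 5 members without Tinaja 7 dpf replicate 1, by 1 without replicate 3 at 7 dpf and by none with another Tinaja library left out. The lowest, -1.72 without Tinaja 7 dpf replicate 1, was that of ENSAMXG00000006007, the member with the largest S. The fitted change in Tinaja (edgeR quasi-likelihood model on counts) had a 95% interval that reached a 2-fold rise in 118 members and stayed under it in 82. Among the 82 is ENSAMXG00000042849, which had no read in Tinaja, so its interval of 0 to 0 excludes nothing. In 187 members, that gene among them, the upper bound was below the member's own rise in surface fish as fitted by the same model. In 13 members it was not. The rule limited T and kept the largest S, which favours an upper bound below the surface rise. Nothing is therefore read from this split of the members. For those 118 genes a 2-fold rise in Tinaja was not excluded.

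**Figure D2:**
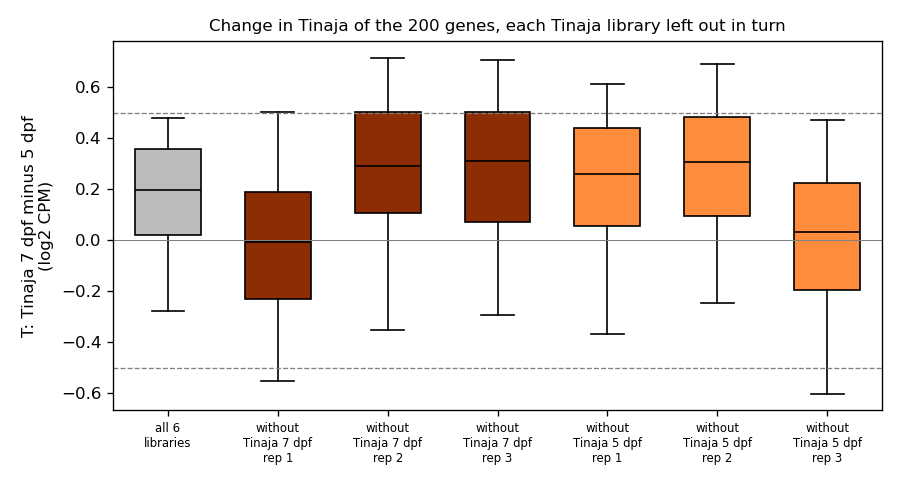
T of the 200 genes (y axis, log2 CPM at 7 dpf minus 5 dpf in Tinaja) with all 6 Tinaja libraries and with each left out in turn (x axis). Boxes show the middle 50% with the median as a line, whiskers the 5th to 95th percentile, and dashed lines the limits of the rule at 0.5 and -0.5. The median is nearest 0 when Tinaja 7 dpf replicate 1 (-0.01) or Tinaja 5 dpf replicate 3 (0.03) is left out.

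A question that the rule does not address directly is at which level Tinaja held the members. The level was expressed as a position, with the mean log2 CPM of surface fish at 7 dpf set to 1 and at 5 dpf to 0, and Tinaja averaged over both ages placed on that scale. The median position was 0.54, with the middle 50% of members from 0.27 to 0.82 and extremes of -1.47 and 2.40. A position of 0.5 is the value without a difference between the forms averaged over the ages, near which TMM scaling centres the genes as a whole, so the median is no finding about the members. Within 0.25 of the surface level at 5 dpf lay 32 members, with 15 below them, and within 0.25 of the surface level at 7 dpf lay 43, with 16 above them. The other 94 were between. Members below the surface level at 5 dpf were the most weakly expressed of these classes, while the median of the mean log2 CPM was 3.97 to 4.70 in the others.

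The test of this level compared Tinaja with surface fish averaged over both ages. The rule did not name this average, which in this balanced design is independent of S and T where the groups have equal spread. Equal spread was not tested. The surface libraries at 5 dpf held fewer reads (10.6 to 12.5 M) than those at 7 dpf (18.5 to 23.6 M). The part of the rule in this comparison was therefore not determined. By edgeR's quasi-likelihood test on all 12 libraries, with p-values adjusted over the 17540 genes and a limit of 0.1, 44 members (22.0%) were higher in Tinaja, against 15.1% of all genes tested. Another 27 members (13.5%) were lower in Tinaja, against 12.6% of all genes tested. The share of lower members was near that of all genes. The median log2 difference was 0.11 over the members and -0.01 over all genes, with 112 members above 0 and 88 below. At an unadjusted p under 0.05 stood 83 members (41.5%), against 34.2% of all genes. Among those that passed, 21 members (10.5%) were at least 2-fold higher, against 9.12% of all genes, and 18 (9%) at least 2-fold lower, against 6.77%. Scaling by library totals in place of TMM moved the split to 37 higher and 43 lower among members, and over all genes to 1906 higher and 2876 lower, against 2641 and 2208 with TMM. Under that scaling the median log2 difference of all genes was -0.12, to which its counts are relative. Without Tinaja 7 dpf replicate 1, 40 members (20.2%) were higher, against 17.7% of all genes in that fit. Another 46 (23.2%) were lower there, against 15.4% of all genes. The direction in which the members most exceeded all genes thus changed when that library was left out. It also changed without Tinaja 5 dpf replicate 2, with 16.2% of members higher (14.5% of all genes) and 15.7% lower (11.4%). Without surface 7 dpf replicate 1 it changed as well, with 15.7% higher (12.3% of all genes) and 14.2% lower (9.08%). With the replicate block the shares were 16.5% higher (12.8%) and 13.5% lower (9.71%).

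Position and this difference are the same quantity in 2 forms, so the classes sort the calls by arithmetic. All 16 members above the surface level at 7 dpf passed as higher, as did 26 of the 43 at that level and 2 of the 94 between. Of the 15 below the surface level at 5 dpf 12 passed as lower, as did 15 of the 32 at that level. The 624 genes that met the rule include 424 with smaller S, of which 61 (14.4%) were higher and 39 (9.2%) lower in Tinaja. Of 235 genes that rose in both forms (S and T of at least 1, ages not overlapping) 29 (12.3%) were higher and 34 (14.5%) lower. Of 116 genes with the mirrored rule, rising in Tinaja and flat in surface fish, 24 (20.7%) were higher and 23 (19.8%) lower.

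**Figure D3:**
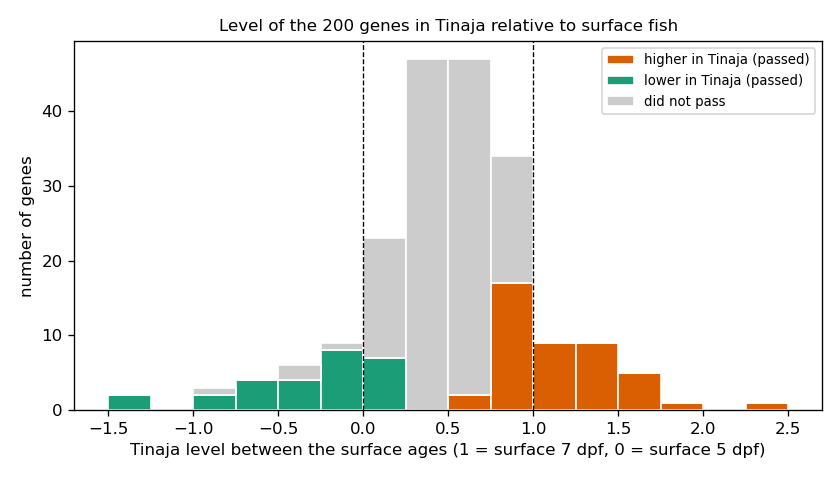
Number of members (y axis) by position of the Tinaja level (x axis), where 1 is the mean of surface fish at 7 dpf and 0 that at 5 dpf (dashed lines), coloured by the edgeR call for Tinaja against surface fish averaged over both ages. The bulk lies between the dashed lines around the median of 0.54, with 44 members called higher towards the right and 27 called lower towards the left.

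The 2 named members that were higher in Tinaja were strongly expressed in every group. Named members were those that passed with at least a 2-fold difference and whose mean log2 CPM reached 3, which 13 higher and 6 lower members met, ordered by size. ENSAMXG00000041157 had 730, 387 and 363 CPM in Tinaja at 7 dpf, against 606, 610 and 364 CPM in Tinaja at 5 dpf. Surface fish had 129, 168 and 204 CPM at 7 dpf, against 35.3, 65.9 and 66.1 CPM at 5 dpf. All 6 Tinaja libraries were above all 6 surface libraries, so the rise in surface fish ended below the level that Tinaja had at either age. Averaged over the ages it was higher in Tinaja by a log2 difference of 2.40 (SE 0.27, edgeR adjusted p = 1.76e-04).

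ENSAMXG00000009298 had 1334, 502 and 697 CPM in Tinaja at 7 dpf, against 667, 1158 and 307 CPM in Tinaja at 5 dpf. In surface fish it had 399, 482 and 381 CPM at 7 dpf, against 79.2, 95.9 and 48.1 CPM at 5 dpf. The Tinaja libraries overlapped the surface libraries at 7 dpf and were all above those at 5 dpf. Its log2 difference averaged over the ages was 2.13 (SE 0.35, edgeR adjusted p = 0.0019).

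The 2 named members that were lower in Tinaja stayed near or under the surface level at 5 dpf. ENSAMXG00000031634 had 31.3, 4.65 and 2.90 CPM in Tinaja at 7 dpf, against 5.07, 5.999 and 5.33 CPM in Tinaja at 5 dpf. The surface libraries had 88.0, 91.6 and 115 CPM at 7 dpf, against 12.7, 29.4 and 25.9 CPM at 5 dpf. One Tinaja library, replicate 1 at 7 dpf, stood apart from the other 5 and reached above the surface libraries at 5 dpf. The log2 difference averaged over the ages was -2.48 (SE 0.51, edgeR adjusted p = 0.00688), and -3.36 without that library. This gene has a T of 0.46 as the mean of log2 values but its fitted change in Tinaja exceeded 2-fold, with a 95% interval of -0.29 to 2.78 on the log2 scale, so whether it counts as flat depends on how the single high library is averaged.

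ENSAMXG00000007224 had 275, 161 and 134 CPM in Tinaja at 7 dpf, against 171, 136 and 93.5 CPM in Tinaja at 5 dpf. Surface fish had 1216, 1635 and 2623 CPM at 7 dpf, against 178, 367 and 191 CPM at 5 dpf. Tinaja overlapped only the younger surface fish. The log2 difference averaged over the ages was -2.07 (SE 0.30, edgeR adjusted p = 9.56e-04). The pair with the largest S was lower in Tinaja as well, with log2 differences of -3.71 (SE 0.83, edgeR adjusted p = 0.0107) for ENSAMXG00000006007 and -3.39 (SE 0.80, edgeR adjusted p = 0.0138) for ENSAMXG00000008159. Over the alternatives the value of ENSAMXG00000006007 ran from -5.03, without Tinaja 7 dpf replicate 1, to -3.07, without surface 5 dpf replicate 1. That of ENSAMXG00000008159 was -1.79 without surface 7 dpf replicate 1 (edgeR adjusted p = 0.00353). With limma-voom ENSAMXG00000008159 gave -2.58 and no longer passed (adjusted p = 0.112).

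**Figure D4:**
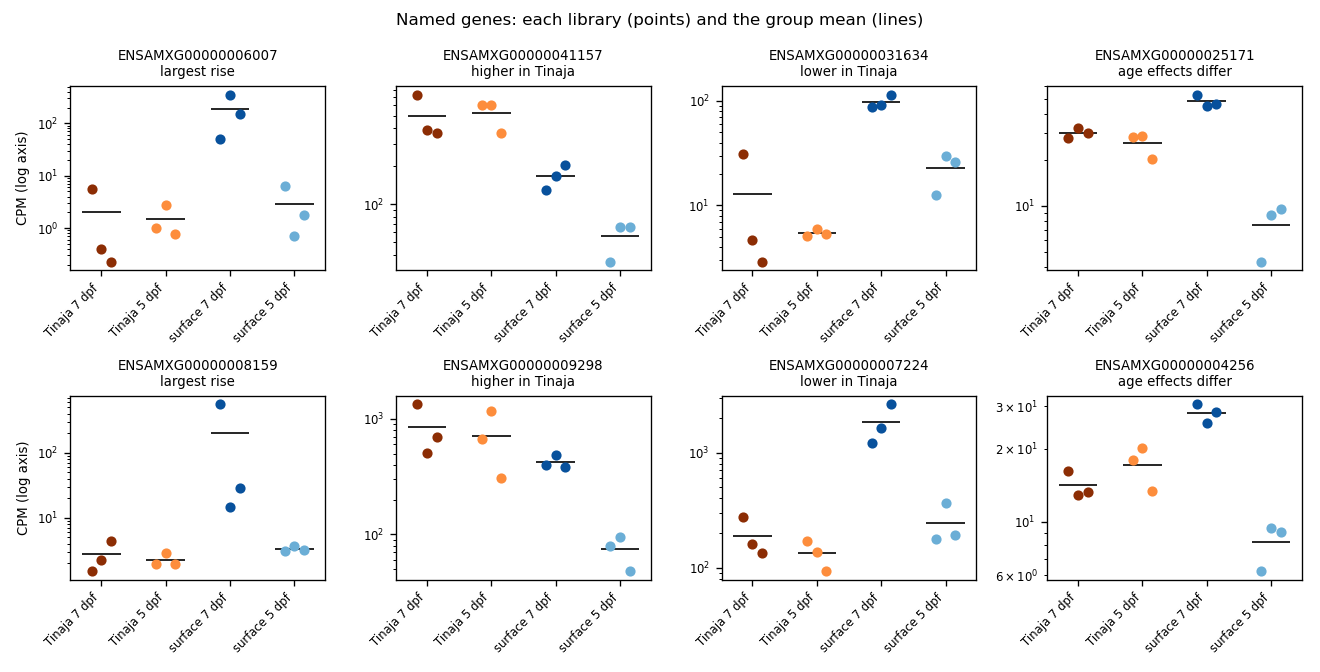
CPM on a log axis of 8 named members, with each library as a point and the group mean as a line, for Tinaja at 7 and 5 dpf and surface fish at 7 and 5 dpf. In ENSAMXG00000041157 (730 to 363 CPM in Tinaja) all Tinaja points lie above all surface points, and in ENSAMXG00000007224 surface fish at 7 dpf (1216 to 2623 CPM) stand above all other groups.

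Members that separated the forms in full were counted as a description. All 6 Tinaja libraries were above all 6 surface libraries in 2 members (1%), against 3.58% of all genes tested. They were below them in 3 members (1.5%), against 2.18%. The rule asks for a rise in surface fish, which widens the range that Tinaja has to clear, so these counts are not independent of it. Whether the rule lowered them was not tested, and nothing is read from them. The 5 genes were singled out after their values were seen. Besides ENSAMXG00000041157, ENSAMXG00000033309 had 43.9, 19.0 and 18.4 CPM in Tinaja at 7 dpf and 30.2, 22.6 and 15.1 CPM at 5 dpf, against 4.82, 4.63 and 3.89 CPM in surface fish at 7 dpf and 0.612, 1.69 and 2.00 CPM at 5 dpf. It has the highest position of the 200, at 2.40.

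The 3 that lay below had low or no counts in Tinaja. ENSAMXG00000042849 had no read in any of the 6 Tinaja libraries, against 72 reads in surface fish at 7 dpf and 20 at 5 dpf, which makes it at least 30.3-fold lower in Tinaja when 3 counts over the 6 libraries are taken as the floor. ENSAMXG00000014616 had 2 reads in Tinaja, both in replicate 1 at 7 dpf, against 439 reads in surface fish at 7 dpf and 67 at 5 dpf. Its pooled level in surface fish was 250-fold that in Tinaja, with an exact 95% counting interval of 68.8 to 2068. Such bounds cover counting error only. The small T of both genes was thus computed from no or almost no reads. ENSAMXG00000001044 was detected in Tinaja, at 0.547, 0.202 and 0.382 CPM at 7 dpf and 0.569, 0.231 and 0.479 CPM at 5 dpf, against 4.31, 3.24 and 1.87 CPM in surface fish at 7 dpf and 1.41, 0.714 and 0.644 CPM at 5 dpf. No other member had 3 or fewer reads over the Tinaja libraries.

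The remaining comparisons use the values by which the rule chose the genes and are given as descriptions. The changes within surface fish and within Tinaja are S and T in fitted form, so the rule largely set their counts. The comparisons within an age and those of overlap involve the surface ages that the rule set apart. Nothing about the members is read from any of these counts. Within surface fish 189 members passed as higher at 7 dpf, against 14.1% of all genes tested. Within Tinaja none passed in either direction by edgeR, none stood at an unadjusted p under 0.05 and at most 2 passed under any other tool or setting, against 2.25% of all genes tested that were higher and 4.72% that were lower at 7 dpf. At 5 dpf 81 members were higher in Tinaja than in surface fish, against 8.77% of all genes, and 3 were lower, against 7.22%. At 7 dpf 4 were higher in Tinaja, against 10.6% of all genes, and 58 were lower, against 7.71%. Of the 200, 77 were called higher in Tinaja at 5 dpf without being called lower at 7 dpf, 54 the reverse, 4 both and 65 neither. The 77 include 4 called higher at both ages, and the 54 include 3 called lower at both. The matching shares of all genes were not computed, so these joint counts are not read as a result about the members. All 6 Tinaja libraries were above the 3 surface libraries at 5 dpf in 95 members, against 10.2% of all genes, and below the 3 at 7 dpf in 69, against 7.47%. In 14 members both held, against 0.274% of all genes. Surface ages that do not overlap are part of the rule and are needed for this, so nothing is read from that count.

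The difference between the age effects, Tinaja minus surface fish, passed as negative in 2 members and as positive in none. Of all genes tested 0.0114% passed as negative, which are the same 2 genes. Another 6 genes (0.0342%), none of them members, passed as positive. In the same edgeR test 154 members (77%) stood at an unadjusted p under 0.05, against 15.8% of all genes. The rule selects for this difference, so nothing is read from these shares. The 2 members that passed were singled out after their values were seen. ENSAMXG00000025171 had 27.9, 32.1 and 29.7 CPM in Tinaja at 7 dpf, against 28.0, 28.5 and 20.4 CPM in Tinaja at 5 dpf. In surface fish it had 53.1, 44.7 and 46.2 CPM at 7 dpf, against 4.34, 8.77 and 9.59 CPM at 5 dpf. All Tinaja libraries lay between the surface ages.

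ENSAMXG00000004256 had 16.1, 12.9 and 13.3 CPM in Tinaja at 7 dpf, against 18.0, 20.2 and 13.4 CPM in Tinaja at 5 dpf. The surface libraries had 30.6, 25.6 and 28.3 CPM at 7 dpf, against 6.24, 9.42 and 9.08 CPM at 5 dpf. Here too Tinaja lay between the surface ages. Averaged over the ages its log2 difference was 0.03 (SE 0.16, edgeR adjusted p = 0.908), and that of ENSAMXG00000025171 was 0.54 (SE 0.19, edgeR adjusted p = 0.0648). The number of members with a passing difference of age effects depended on single Tinaja libraries. All of these calls in members were negative. The number was 124 when Tinaja 7 dpf replicate 1 was left out, where 4.24% of all genes passed as negative and 4.06% as positive. It was 56 when Tinaja 5 dpf replicate 3 was left out, where 1.33% of all genes passed as negative and 1.68% as positive. It was 84 with DESeq2 on all libraries, where 2.34% of all genes passed as negative and 2.42% as positive. Under every other tool, scaling, model or library left out it was 0 to 3. The calls over all genes thus moved with those of the members.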

How the data were processed

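Livers of Tinaja and surface fish larvae at 7 and 5 dpf were sequenced as stranded polyadenylated RNA (75 bp single reads). Per the submitters' notes and the study's methods, reads were aligned with STAR 2.7.3a to astMex_2.0 with the Ensembl 102 annotation, and RSEM 1.3.0 is also listed. The authors deposited whole-number counts for 27420 genes. No source used here gives the strand setting of the counting, so reads of overlapping genes on opposite strands may be lost or misassigned, and reads at many places were set aside, which can lower near-identical paralogues. The 4 summary rows of each library stayed out of library sizes and tests. All 12 columns were used.

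Counts were filtered with edgeR's filterByExpr over the 4 groups, scaled by TMM and tested in edgeR 4.0.16 (R 4.3.3) by the quasi-likelihood test with robust dispersions and 1 mean per group, which leaves 8 residual degrees of freedom. The Benjamini-Hochberg limit of 0.1 is that of the study, which for these livers also required a 2-fold change. The main calls here required no fold change, so they are looser. Counts at 2-fold or more are given for the difference averaged over both ages. Standard errors were derived from the F statistics. Alternatives used DESeq2 1.42.0, limma-voom (limma 3.58.1), other scalings and filters, a replicate block, reads outside genes as a covariate, counts thinned to equal depth and each library left out. The code was tested on simulated data. Genes were named by the rule given with them (2 largest S, 2 higher and 2 lower), and those chosen after their values were seen are marked. The members, lists and rules were chosen with earlier results of these data known. The planned lists of metabolic genes and cell type markers could not be matched to identifiers and were not used. Replicate pairs differed beyond counting noise (chi-square per gene 21.2 to 112), so none was counted as a copy.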

Additional observations from a re-analysis of the deposited data

Results flagged for a closer look

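The age effect in Tinaja minus that in surface fish passed its test (edgeR adjusted p = 0.0792 for each) in 2 members, which puts them here as differing between the forms. It was -2.44 on the log2 scale (SE 0.38) for ENSAMXG00000025171 and -2.06 (SE 0.32) for ENSAMXG00000004256. The rule that chose the members selects for this difference, so neither value is independent evidence. The calls were lost with library totals (-1.83 and -1.47, adjusted p = 0.127 each), with the replicate block (-2.47 and -2.05, adjusted p = 0.175 each), with reads outside genes as a covariate (-1.78 and -1.43, adjusted p = 0.635 and 0.615) and without most single libraries.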

How the results depend on the processing

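Over 9 other tools, scalings, filters and models the number of members higher in Tinaja averaged over ages ran from 33 to 51, against 44. Of all genes, 12.8% were higher in the fit with 33 (replicate block) and 17% in that with 51 (DESeq2), against 15.1%. Over 12 single libraries left out the number ran from 31 to 48. Of all genes, 12.3% were higher in the fit with 31 (without surface 7 dpf replicate 1). In the fit with 48 (without Tinaja 5 dpf replicate 3) it was 13.3%. The number lower was 43 with library totals and 41 with reads outside genes as a covariate, and 23 to 46 with a library left out (46 without Tinaja 7 dpf replicate 1), against 27. The matching shares of all genes were 10.9% higher and 16.4% lower with library totals, 17.4% and 16.8% with the covariate, and 17.7% and 15.4% without that library. In the fits with 23 members lower, 8.94% to 11.5% of all genes were lower, against 12.6% in the main fit. In all 22 settings 24 of the members stayed higher and 17 stayed lower. The matching share of all genes was not computed, so these counts have no background. Between 192 and 200 members were fitted in a setting, and a member removed by the filter counts as not staying. Over all genes 3941 to 5986 passed, and 3671 to 5920 with a library left out. The samples share only a replicate number (correlation of same-numbered deviations -0.28 to 0.41, over 0.1 in 3 of 18 pairs), and the replicate block gave 33 members higher, 27 lower and 3941 genes in all.

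Membership rested on the scaling and on the limits. With library totals 74 of the 200 met the rule, and 102 with T limited to 0.25. With a library left out 144 to 200 did, and with group medians in place of means, an alternative added after seeing the data, 166. Library totals moved the median of all genes for surface fish at 7 against 5 dpf to -0.77, against -0.05 with TMM. With the covariate, which itself differs between the surface ages, 48 members passed as higher at 7 dpf in surface fish (2.91% of all genes), against 189 (14.1%). The calls within each age moved too. At 5 dpf 30 members were higher in Tinaja with the covariate (4.24% of all genes) and 52 with library totals (4.04%), against 81 (8.77%). With a library left out the number ran from 47 to 94. Of all genes, 5.6% were higher in the fit with 47 and 11% in that with 94. At 7 dpf 30 to 96 were lower with a library left out (1.91% to 14.1% of all genes), against 58 (7.71%). Calls over all genes thus moved with those of the members. The cause of these shifts was not tested. The smallest change in Tinaja that 3 libraries a group could detect was not determined, so small changes in the members may have been missed.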
